A study of Mus musculus with 8 samples.

Results

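The genes described here are 28 genes of cholesterol synthesis and transport, of 31053 genes counted in RNA-seq of the FAP cell states. They were taken by name from a list of the pathway and matched by Ensembl identifier. The list holds 18 enzymes that lead from acetyl-CoA to cholesterol, 4 genes that control the transcription factor SREBP2, 3 genes that move cholesterol inside the cell, and 3 genes of export, esterification and lipoprotein assembly. All 28 were detected, and 27 of them had enough counts for the test across genes.

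Fibro/adipogenic progenitors (FAPs) are mesenchymal cells of skeletal muscle that can turn into adipocytes or fibroblasts. The cells came from hind limb muscles of *mdx* mice (C57BL/10ScSn-Dmdmdx/J), which lack dystrophin, at 45 days of age. Every sample carries the same allele, so no group without it is part of the comparison. Cells without CD45, CD31 and integrin alpha-7 and with SCA-1 on the surface were sorted by cytometry into cells with high SCA-1 (SCA1-High-FAPs) and cells with low SCA-1 (SCA1-Low-FAPs). Each cell state was represented by 4 samples, kept in culture for 5 days with the serum-containing growth medium (GM) before any induction of adipogenic differentiation. The question of the comparison was how the mRNA of the 2 cell states differs before induction.

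The depth ran from 1880561 to 3985656 counts on genes, with a median of 2325193.5 for the SCA1-High-FAP samples against 2591338.5 for the SCA1-Low-FAP samples. Levels are given as CPM, in which the count of each gene is set against the total of its sample with edgeR scaling factors. The libraries read the 3′ ends of transcripts, and levels, or sums over the same genes, are compared here between samples and not between genes. The detection limit was set at 3 counts, which came to between 0.753 and 1.6 CPM and covers counting error only. Transcripts of the FAP marker *Pdgfra* were present in all samples, those of the myogenic genes *Pax7*, *Myod1*, *Myog* and *Myf5* were at 0, and the leucocyte gene *Ptprc* had 1 count in all. The mRNA of *Ly6a*, which encodes SCA-1, went against the order of the sort after culture, at 492, 789, 645 and 919 CPM in SCA1-High-FAPs and 1100, 1080, 1156 and 1014 CPM in SCA1-Low-FAPs. This difference of 0.61 on the log2 scale had an adjusted *p*-value of 0.0341, and of 0.0573 with the replicate number as a block. The names of the cell states therefore stand for the surface protein at the sort.

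Cells make cholesterol from acetyl-CoA through mevalonate, farnesyl diphosphate, squalene and lanosterol. When sterol in the endoplasmic reticulum is low, SCAP carries SREBP2 to the Golgi, where it is cleaved and released to switch on the genes of synthesis and uptake, and INSIG proteins hold the complex back when sterol is high. Cholesterol from lipoproteins leaves the lysosome through NPC2 and NPC1. Surplus is stored as ester by SOAT1 or exported by ABCA1 to apolipoproteins such as APOE, and the oxysterol receptors LXR induce the export genes. Adipocytes hold much of their free cholesterol at the surface of the lipid droplet.

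The promoters of 3 genes are shown as a description of their letters. *Hmgcs1* is a classical SREBP2 target and the member whose window held the letters of the sterol regulatory element, while *Abca1* and *Dhcr7* were called in the comparison of the cell states. The choice was made after letters and values were seen, and *Apoe*, the remaining gene that was called, held none of the letters searched in its 3 windows. Each sequence is the 250 bases before a RefSeq start on GRCm38.p6, written 5′ to 3′ along the gene. Capitals mark the letters TCACNCCAC (sterol regulatory element), CCAAT (bound by NF-Y) or CACGTG (an E-box) on either strand, where ATTGG is CCAAT on the other strand. The *Hmgcs1* window is chr13:119690101-119690350 on the plus strand, the *Dhcr7* window is chr7:143829964-143830213 on the plus strand, upstream of the 3rd annotated start inside the gene, and the *Abca1* window is chr4:53159896-53160145 on the minus strand.
Hmgcs1: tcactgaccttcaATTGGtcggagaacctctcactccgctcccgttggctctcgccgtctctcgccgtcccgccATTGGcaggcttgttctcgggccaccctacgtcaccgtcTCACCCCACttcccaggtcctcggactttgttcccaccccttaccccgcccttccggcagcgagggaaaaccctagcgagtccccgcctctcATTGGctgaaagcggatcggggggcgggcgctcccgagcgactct
Dhcr7: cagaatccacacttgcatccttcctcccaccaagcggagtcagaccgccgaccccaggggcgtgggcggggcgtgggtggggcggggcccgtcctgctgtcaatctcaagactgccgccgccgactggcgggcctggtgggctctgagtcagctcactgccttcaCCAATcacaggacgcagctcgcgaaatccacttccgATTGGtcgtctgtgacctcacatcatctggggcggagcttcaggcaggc
Abca1: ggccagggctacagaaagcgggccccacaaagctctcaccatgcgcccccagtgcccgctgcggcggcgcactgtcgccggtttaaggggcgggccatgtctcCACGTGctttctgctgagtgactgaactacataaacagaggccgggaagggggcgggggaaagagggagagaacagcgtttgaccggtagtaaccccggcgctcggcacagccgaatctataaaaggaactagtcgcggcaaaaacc

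The sterol regulatory element of *Hmgcs1* began 137 bases before the start, between CCAAT boxes at 176 and 45 bases before it. Windows that run from 250 bases before to 50 bases after a start were found for 23 of the 28 members. CCAAT occurred in 19 of these 23 (82.6%), against 41.1% of all 27025 genes with a window and 43.2% of the genes that were tested for expression. TCACNCCAC occurred in 1 of 23 (4.35%), against 1.44% of all genes. CACGTG occurred in 6 of 23 (26.1%), against 8.09% of all genes and 12.4% of tested genes. The 6 were *Abca1*, *Dhcr7*, *Hsd17b7*, *Insig1*, *Sc5d* and *Scap*. A gene was counted when any of its windows held the letters. The CACGTG of *Dhcr7* lay 164 bases before another of its starts, outside the window printed above. These are counts of letters, which do not show binding.

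Across the 27 members tested, 3 were called with a higher level in SCA1-High-FAPs, and 0 with a higher level in SCA1-Low-FAPs. The 3 genes were *Apoe*, the lipoprotein component, *Abca1*, the cholesterol exporter, and *Dhcr7*, an enzyme of the last steps to cholesterol. A gene was called when edgeR's adjusted *p*-value was under 0.05 and the log2 fold change, taken as the level in SCA1-Low-FAPs over that in SCA1-High-FAPs, was beyond 0.5 in size. The share of members called was 11.1%, against 7.68% of all 10181 genes tested, of which 4.36% were higher in SCA1-High-FAPs and 3.32% higher in SCA1-Low-FAPs. The CPM of the cell states did not overlap for 6 members, against 14.1% of all tested genes. The median log2 fold change of the members was −0.16 and that of all tested genes 0.00029, and their median size was 0.26 against 0.30.

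**Figure D1:**
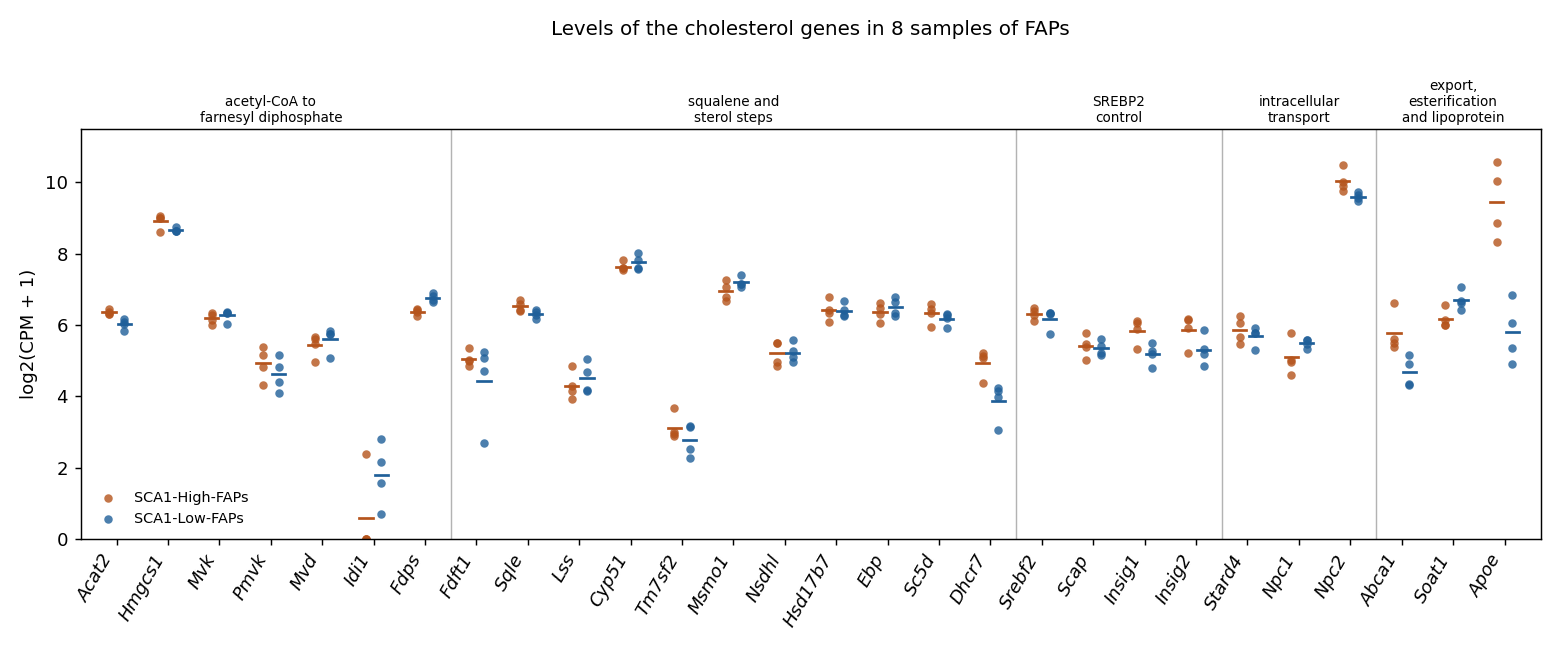
Level of each of the 28 genes in each of the 8 samples, as log2(CPM + 1), with genes grouped by role along the horizontal axis. Points are samples, short lines are means of the 4 samples of a cell state, orange is SCA1-High-FAPs and blue SCA1-Low-FAPs, and the widest gap between the colours is that of Apoe.

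The calls depended on single samples and on the fit. DESeq2 called the same 3 genes (8.53% of the genes it gave an adjusted *p*-value). In contrast, edgeR with the replicate number as a block called 1 of the 3, *Apoe* (6.85% of all tested genes). Equal replicate numbers are not known to be the same mouse, so the block is not a pairing by animal. When each sample was left out in turn, edgeR called between 0 and 4 members. Over all genes it called 410 to 1017 in these fits, against 782 with all samples. Each of the 3 genes kept more mRNA in SCA1-High-FAPs in all 8 of these fits.

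*Apoe* had the largest log2 fold change of the 27 members tested. It encodes apolipoprotein E, which accepts exported cholesterol and is read by lipoprotein receptors, and lies at chromosome 7, 19696109 to 19699188, on the minus strand. Its level was 1054, 467, 1523 and 321 CPM in replicates 1 to 4 of SCA1-High-FAPs, and 65.3, 40.3, 114 and 28.8 CPM in SCA1-Low-FAPs. Every SCA1-High-FAP sample was above every SCA1-Low-FAP sample, but the 4 samples within each cell state spread over several fold, and in both states replicate 3 was highest and replicate 4 lowest. The means were 841 ± 554 CPM and 62.1 ± 37.9 CPM (SD, n = 4 each), 13.5-fold apart. The log2 fold change was −3.75 (SE 0.71, 95% interval −5.47 to −2.04), with an adjusted *p*-value of 0.0278 from edgeR, 2.44e-07 from edgeR with the block and 8.91e-07 from DESeq2. With each sample left out in turn the log2 fold change lay between −4.26 and −3.30, and the adjusted *p*-value stayed under 0.05 in 3 of 8 fits. It rose to between 0.0569 and 0.0850 without replicate 1 or 3 of SCA1-High-FAPs, or replicate 1, 2 or 4 of SCA1-Low-FAPs.

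*Abca1* encodes the transporter that passes cholesterol and phospholipid to lipid-poor apolipoproteins (chromosome 4, 53030787 to 53159895, minus strand). It was measured at 97.0, 44.3, 40.9 and 47.7 CPM in SCA1-High-FAPs and at 19.3, 28.9, 34.9 and 18.7 CPM in SCA1-Low-FAPs. The groups did not overlap, and replicate 1 of SCA1-High-FAPs stood well above the other 3. The log2 fold change was −1.17 (SE 0.30, 95% interval −1.81 to −0.53, adjusted *p*-value 0.0244), a 2.26-fold difference of means. Without that sample it was −0.79 and the adjusted *p*-value 0.117. The call was also lost without replicate 1, 2 or 4 of SCA1-Low-FAPs (adjusted *p*-values of 0.0522 to 0.0911), and with the replicate block the adjusted *p*-value was 0.0641.

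*Dhcr7* encodes 7-dehydrocholesterol reductase, which completes one branch of the route to cholesterol (chromosome 7, 143823145 to 143848410, plus strand). Its level was 32.5, 33.9, 35.9 and 19.8 CPM in SCA1-High-FAPs and 7.25, 16.9, 17.8 and 14.8 CPM in SCA1-Low-FAPs. All 4 SCA1-High-FAP samples were higher, the nearest being replicate 4 at 19.8 CPM. The means of 30.5 ± 7.28 and 14.2 ± 4.78 CPM (SD, n = 4 each) differed 2.15-fold, with a log2 fold change of −1.09 (SE 0.32, 95% interval −1.76 to −0.42). The adjusted *p*-value was 0.0424, and 0.0704 with the block. It passed the threshold in 2 of the 8 fits that left out 1 sample, those without replicate 4 of SCA1-High-FAPs or replicate 3 of SCA1-Low-FAPs, with log2 fold changes from −1.25 to −0.88. The lowest sample had 15 counts.

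**Figure D2:**
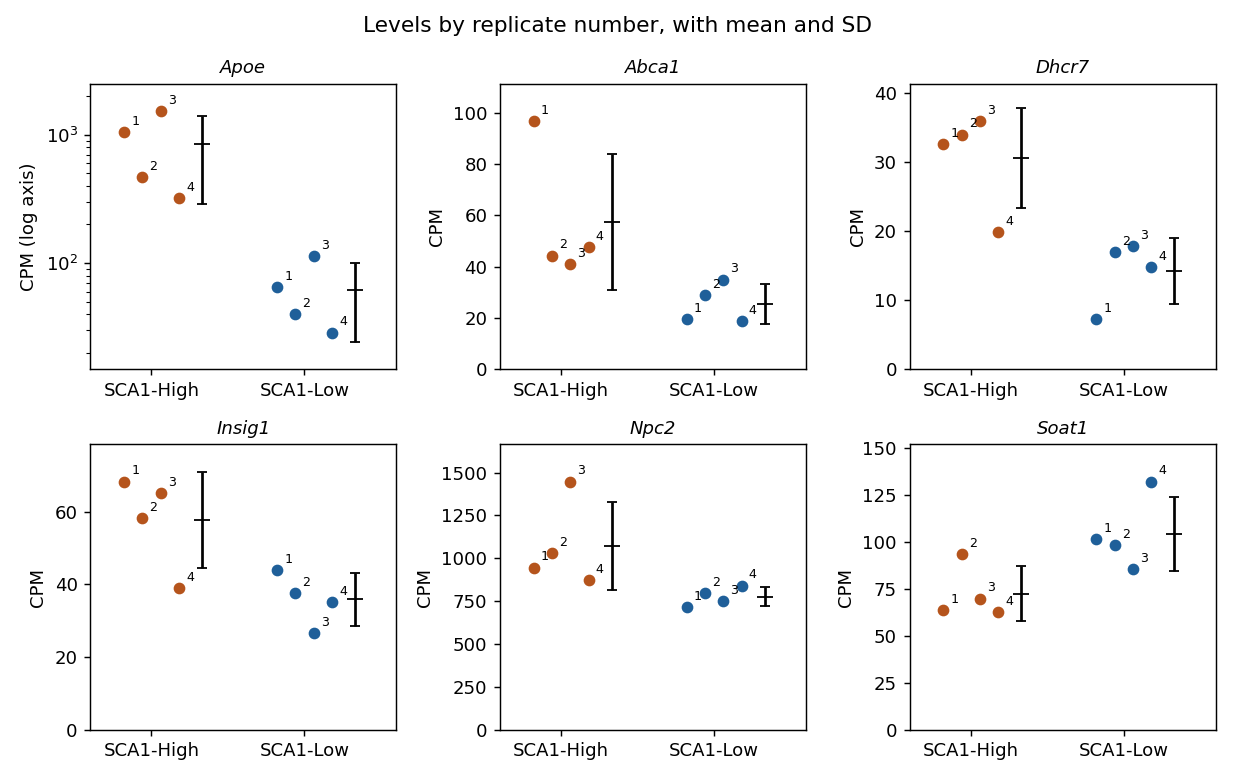
CPM of Apoe (logarithmic axis), Abca1, Dhcr7, Insig1, Npc2 and Soat1 (linear axes from 0), with each point a sample labelled by its replicate number and bars giving mean ± SD of the 4 samples. Apoe, Abca1, Dhcr7 and Npc2 show no overlap between cell states, while Insig1 and Soat1 overlap in 1 or more samples.

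The rest of the synthesis enzymes differed little. Of the 17 enzymes tested, 16 had a log2 fold change within 0.5 of 0 (94.1%, against 70.02% of all tested genes). The share over all tested genes was not matched for the number of counts. Of the 17, 9 were negative and 8 positive, and *Dhcr7* was the 1 that was called. The median of the 17 was −0.02 and their median size 0.23. Summed over all 18 enzymes, the level was 1662, 1593, 1692 and 1387 CPM in SCA1-High-FAPs and 1538, 1520.2, 1511 and 1527 CPM in SCA1-Low-FAPs. The SCA1-Low-FAP samples all fell inside the range of the SCA1-High-FAP samples, with means of 1524 ± 11.3 and 1584 ± 138 CPM (SD, n = 4 each). Without *Hmgcs1* the sums also overlapped, at 995 to 1164 CPM and 1089 to 1142 CPM. For 14 of the 17 enzymes the 95% interval of the log2 fold change lay within 1 of 0, and the other 3 were *Dhcr7*, *Fdft1* and *Tm7sf2*.

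In the steps from acetyl-CoA to farnesyl diphosphate, 0 of 6 tested enzymes passed edgeR's test, and 1 had an unadjusted *p*-value under 0.05. Over all tested genes, 21.3% had an unadjusted edgeR *p*-value under 0.05. *Acat2*, the thiolase that starts the pathway, was at 78.2, 86.3, 78.1 and 81.8 CPM in SCA1-High-FAPs and 64.8, 56.1, 66.6 and 70.2 CPM in SCA1-Low-FAPs, and *Fdps*, which makes farnesyl diphosphate, was at 86.6, 80.9, 84.8 and 75.5 CPM against 118, 112, 99.6 and 102 CPM. Neither gene overlapped between the cell states, and the differences pointed in opposite directions. The log2 fold change of *Acat2* was −0.33 (95% interval −0.69 to 0.03, adjusted *p*-value 0.283) and that of *Fdps* 0.40 (0.07 to 0.73, adjusted *p*-value 0.141). *Hmgcs1*, which makes HMG-CoA, was at 508, 511, 529 and 392 CPM in SCA1-High-FAPs and 395, 431, 397 and 400.2 CPM in SCA1-Low-FAPs. Replicate 4 of SCA1-High-FAPs lay with the SCA1-Low-FAP samples, and the log2 fold change was −0.26 (−0.55 to 0.04, adjusted *p*-value 0.310).

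The kinases *Mvk* and *Pmvk* and the decarboxylase *Mvd*, which turn mevalonate into isopentenyl diphosphate, had log2 fold changes of 0.07, −0.32 and 0.20, with levels of 63.6 to 81.7, 16.0 to 40.9 and 30.4 to 56.5 CPM over all samples. All 3 overlapped between the cell states. *Idi1*, the isomerase that follows, was counted 39 times in all and fell below the filter. It stood at 4.24, 0, 0 and 0 CPM in SCA1-High-FAPs and 1.93, 5.99, 0.634 and 3.43 CPM in SCA1-Low-FAPs, which did not differ beyond the spread between samples (two-sided exact permutation test, *p* = 0.2, where 0.0286 is the smallest possible). The 3′ end of *Idi1* is identical over 354 bases to other annotated genes, and reads with more than 1 position were given to no gene, so its true level may be higher.

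From squalene onwards, 10 of 11 enzymes did not pass the test. *Sqle*, the epoxidase that limits this part of the route, was at 96.0, 82.7, 103 and 84.3 CPM in SCA1-High-FAPs and 81.2, 84.4, 70.4 and 76.6 CPM in SCA1-Low-FAPs, a difference of −0.23 on the log2 scale (95% interval −0.58 to 0.12). *Cyp51*, the lanosterol demethylase, was at 186, 193, 224 and 193 CPM against 228, 188, 194 and 258 CPM (0.13, −0.19 to 0.44). *Msmo1*, which removes the C4 methyl groups, was at 152, 132, 109 and 100.8 CPM against 140.2, 142, 169 and 134 CPM (0.24, −0.11 to 0.59). The 2 cell states overlapped in all 3 genes, and all 3 intervals lay inside a 2-fold difference.

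The same held for *Nsdhl* and *Hsd17b7*, the dehydrogenase and ketoreductase that act with *Msmo1*, with log2 fold changes of 0.02 and −0.02 and changes of sign when single samples were left out. *Ebp*, the sterol isomerase, and *Sc5d*, the desaturase just before *Dhcr7*, had log2 fold changes of 0.14 and −0.16. *Lss*, which closes the ring to lanosterol, ranged from 14.3 to 31.9 CPM (log2 fold change 0.23). *Fdft1*, the squalene synthase, was at 25.3 to 39.5 CPM in 7 samples and at 5.45 CPM, or 10 counts, in replicate 2 of SCA1-Low-FAPs, and its interval of −1.17 to 0.46 was correspondingly wide. *Tm7sf2*, a sterol reductase, had 140 counts in all and an interval of −1.42 to 0.66, an interval that reaches past 2-fold in SCA1-High-FAPs.

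**Figure D3:**
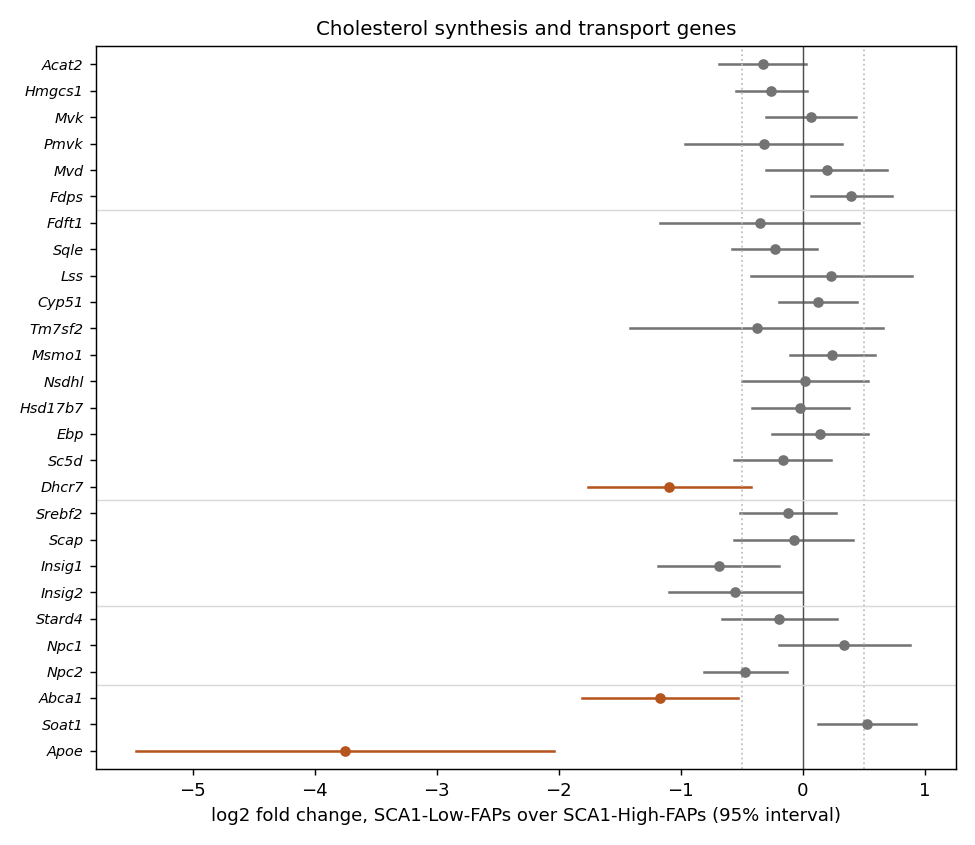
Log2 fold change (low over high SCA-1 state) for the 27 tested members, with 95% intervals from edgeR; grey lines separate the roles, and dotted lines mark 0.5 in either direction. The 3 called genes, Dhcr7, Abca1 and Apoe, are in orange and lie to the left of 0, and most synthesis enzymes lie close to 0.

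The genes that control SREBP2 were all lower on average in SCA1-Low-FAPs, and 0 of 4 passed edgeR's test. An unadjusted *p*-value under 0.05 was found for 2 of them, against 21.3% of all tested genes. *Insig1*, the sterol sensor partner that is itself an SREBP target, was at 68.3, 58.3, 65.1 and 38.9 CPM in SCA1-High-FAPs and 44.0, 37.6, 26.6 and 35.1 CPM in SCA1-Low-FAPs. Replicate 4 of SCA1-High-FAPs lay among the SCA1-Low-FAP samples and the other 3 above them. The log2 fold change was −0.69 (SE 0.24, 95% interval −1.19 to −0.19, adjusted *p*-value 0.0856), and without that replicate it was −0.84 with an adjusted *p*-value of 0.0410. *Insig2*, which has the same task and is not induced by SREBP, was at 69.2, 36.2, 70.6 and 59.4 CPM against 35.3, 27.8, 56.8 and 39.3 CPM (−0.55, −1.10 to −0.01, adjusted *p*-value 0.227). *Srebf2*, the gene of SREBP2 itself, and *Scap*, its escort, differed by −0.12 and −0.07, with adjusted *p*-values of 0.791 and 0.903 and a change of sign when 1 sample was left out.

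Among the transport genes, *Npc2*, the soluble lysosomal carrier, was at 945, 1029, 1448 and 874 CPM in SCA1-High-FAPs and 714, 799, 749 and 841 CPM in SCA1-Low-FAPs. The cell states did not overlap, but replicate 4 of each lay close together, and the log2 fold change of −0.47 (SE 0.16, 95% interval −0.81 to −0.13) had an adjusted *p*-value of 0.0855. *Npc1*, its membrane partner, had the opposite sign at 0.34 (−0.20 to 0.88, adjusted *p*-value 0.492), with levels of 23.4 to 53.3 CPM in SCA1-High-FAPs and 38.8 to 46.8 CPM in SCA1-Low-FAPs. *Stard4*, a cytosolic sterol carrier and SREBP2 target, ran from 43.3 to 75.8 CPM and from 38.7 to 59.3 CPM (−0.19, adjusted *p*-value 0.691).

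*Soat1*, the enzyme that esterifies cholesterol for storage, had the highest positive log2 fold change of the 27 members tested. It was at 63.6, 93.6, 69.7 and 62.7 CPM in SCA1-High-FAPs and 102, 98.0, 85.3 and 132 CPM in SCA1-Low-FAPs. Replicate 2 of SCA1-High-FAPs exceeded replicate 3 of SCA1-Low-FAPs, and the other samples kept the order of the states. The log2 fold change was 0.53 (SE 0.19, 95% interval 0.13 to 0.93) and the adjusted *p*-value 0.106, so it was not called.

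Markers of adipocytes and of mitosis moved with the cell state. The summed level of 10 adipocyte markers was 7101, 2429, 4086 and 1252 CPM in SCA1-High-FAPs and 242, 275, 702 and 138 CPM in SCA1-Low-FAPs, and 5 of the 9 that were tested were called higher in SCA1-High-FAPs. Within each state the order of the samples by these markers was not that of *Apoe* in full, since replicate 1 led SCA1-High-FAPs and replicate 3 led SCA1-Low-FAPs, but replicate 4 was lowest in both states for markers and *Apoe* alike. *Abca1* was highest in the samples that led for the adipocyte markers, replicate 1 of SCA1-High-FAPs and replicate 3 of SCA1-Low-FAPs. The orders differed below the top in SCA1-High-FAPs, where replicate 4, the lowest for the markers, was next highest for *Abca1* and replicate 3 was lowest. All 10 mitosis markers were called higher in SCA1-Low-FAPs, with sums of 694 to 925 CPM in SCA1-High-FAPs and 1324 to 1940 CPM in SCA1-Low-FAPs. The paper reported that SCA1-High-FAPs doubled faster in culture, and later had higher confluence and fewer cells positive for a proliferation marker. The mitosis markers at 5 days do not give a rate of division. The part of adipocyte markers, mitosis markers or confluence in the *Apoe*, *Abca1* and *Dhcr7* results was not tested. In bulk RNA a change in the number of cells of a type and a change in the RNA per cell cannot be told apart.

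Macrophages also express *Apoe* and *Abca1*, and the sort removed cells with CD45, which leucocytes carry. Of 8 leucocyte and macrophage genes, *Adgre1*, *Itgam* and *Tyrobp* were at 0 in all samples, *Ptprc* and *C1qa* had 1 count each, and *Lyz2* alone was tested and was higher in SCA1-High-FAPs (log2 fold change −1.42, adjusted *p*-value 0.0153). The remaining genes had too few counts for the test and opposite signs, with *Cd68* at 2.88 CPM in SCA1-High-FAPs against 0.477 CPM, without overlap, and *Csf1r* at 3.32 against 5.48 CPM, with overlap. The sum of the 8 was 25.3 to 48.0 CPM in SCA1-High-FAPs and 12.5 to 19.3 CPM in SCA1-Low-FAPs. Sums of the endothelial markers (1.47 to 7.10 against 0.483 to 7.39 CPM), the myogenic markers (0 to 6.59 against 0 to 12.5 CPM) and the Schwann cell and pericyte markers (8.14 to 16.7 against 2.18 to 7.61 CPM) were low, and 0 of these genes passed the filter. Of the 8 FAP markers, summing to 12996 to 15895 CPM and 8023 to 13867 CPM, *Dcn* and *Col3a1* were called higher in SCA1-High-FAPs and *Ly6a* higher in SCA1-Low-FAPs.

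The wider pathway was examined through 41 further genes, of which 36 were tested. Of these, 3 were called higher in SCA1-High-FAPs and 2 higher in SCA1-Low-FAPs, 13.9% of those tested, against 7.68% of all genes (4.36% and 3.32% by direction). None of the 11 genes of further synthesis and SREBP processing and none of the 5 receptor and uptake genes was called by edgeR. An unadjusted *p*-value under 0.05 was found for 2 and 3 of them, against 21.3% of all tested genes.

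*Nceh1*, which hydrolyses cholesterol esters and so opposes *Soat1*, was the other pathway gene with the smallest adjusted *p*-value. It was at 12.7, 13.6, 5.01 and 7.33 CPM in SCA1-High-FAPs and 44.5, 39.7, 19.7 and 40.9 CPM in SCA1-Low-FAPs. Every SCA1-Low-FAP sample was above every SCA1-High-FAP sample, with a log2 fold change of 1.91 (SE 0.36, adjusted *p*-value 0.00323), and it was called in all 8 fits that left out a sample. *Scp2*, a carrier of sterols and other lipids, had the opposite direction, at 83.3, 62.8, 128 and 67.1 CPM against 53.7, 30.5, 59.6 and 40.7 CPM (−0.88, SE 0.25, adjusted *p*-value 0.0415), and was called in 3 of those 8 fits, those without replicate 2 or 4 of SCA1-High-FAPs or replicate 3 of SCA1-Low-FAPs.

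Of 7 genes around the receptor LXR, 5 were tested, all with negative log2 fold changes, and 1 was called. *Ch25h* and *Cyp27a1* had 5 and 8 counts in all and were not tested. Of the tested genes, *Nr1h2* and *Lpcat3* overlapped between the cell states. Their log2 fold changes were −0.18 and −0.16, with adjusted *p*-values of 0.769 and 0.702 from edgeR. *Cyp7b1*, an oxysterol hydroxylase, was at 19.8, 10.4, 54.7 and 27.1 CPM in SCA1-High-FAPs and at 1.45, 0, 6.98 and 1.32 CPM in SCA1-Low-FAPs, with no overlap (−3.39, SE 0.73, adjusted *p*-value 0.0157). Its log2 fold change was −4.74 without replicate 3 of SCA1-Low-FAPs and between −3.64 and −2.85 without any other sample, and the call was lost without replicate 1 or 4 of SCA1-Low-FAPs (adjusted *p*-values of 0.0722 and 0.0774). *Abcg1*, the exporter to mature lipoproteins and an LXR target like *Abca1*, was at 29.2, 9.95, 15.4 and 14.3 CPM against 5.80, 4.90, 9.83 and 5.02 CPM. The lowest SCA1-High-FAP sample was just above the highest SCA1-Low-FAP sample, and the log2 fold change of −1.41 had an adjusted *p*-value of 0.0551 from edgeR and 0.0355 from DESeq2. *Nr1h3*, which encodes LXR-alpha, was at 5.87 to 21.7 CPM and 4.83 to 8.25 CPM (−1.03, adjusted *p*-value 0.201).

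Of 8 genes of SREBP1 and fatty acid synthesis, 1 was called in each direction. *Scd1*, which makes monounsaturated fatty acids, was at 544, 352, 401 and 199 CPM against 158, 126, 188 and 201 CPM, where only replicate 4 of SCA1-High-FAPs lay within the SCA1-Low-FAP range (−1.15, SE 0.26, adjusted *p*-value 0.0159). *Elovl6*, which lengthens fatty acids, was at 29.2, 33.5, 21.3 and 24.6 CPM against 58.0, 55.0, 43.8 and 61.2 CPM, with no overlap (1.01, SE 0.23, adjusted *p*-value 0.0116). *Srebf1*, the gene of SREBP1, overlapped between the cell states (−0.73, adjusted *p*-value 0.321). With 1 sample left out, *Scd1* lost its call without replicate 3 of SCA1-High-FAPs or replicate 1 of SCA1-Low-FAPs, and *Elovl6* without replicate 4 of SCA1-Low-FAPs. *Acaca*, the acetyl-CoA carboxylase, which is named after its values were seen, was at 82.4, 80.5, 98.1 and 42.9 CPM against 43.5, 17.4, 33.9 and 52.5 CPM, and its log2 fold change of −1.02 had an adjusted *p*-value of 0.0509 from edgeR and 0.0217 from DESeq2, which called 3 of the 8 genes. All 5 called genes of the wider pathway were also called with the replicate block.

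**Figure D4:**
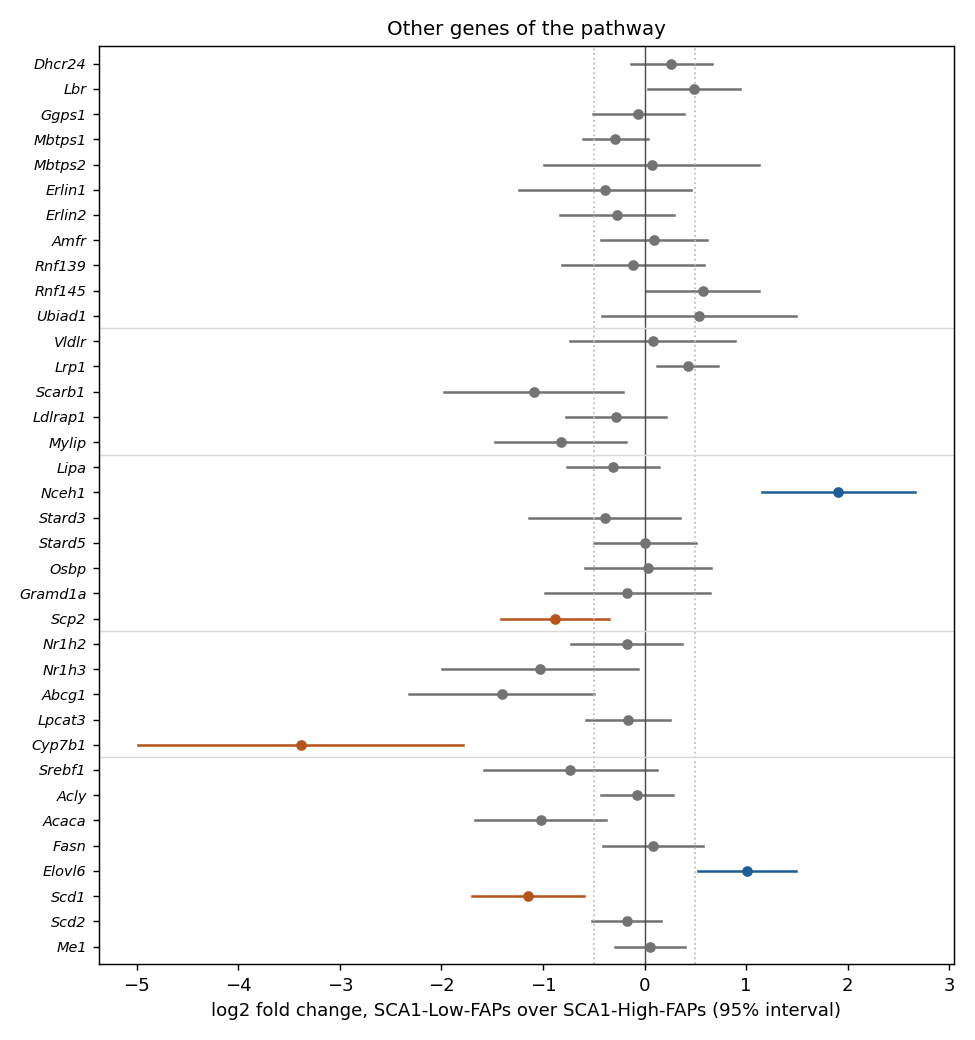
Log2 fold change (low over high SCA-1 state) with 95% intervals for the 36 tested genes of the wider pathway, from synthesis and SREBP processing at the top to SREBP1 and fatty acid genes at the bottom. Blue marks the 2 genes called higher in SCA1-Low-FAPs, Nceh1 and Elovl6, and orange the 3 called higher in SCA1-High-FAPs, Scp2, Cyp7b1 and Scd1.

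**Figure D5:**
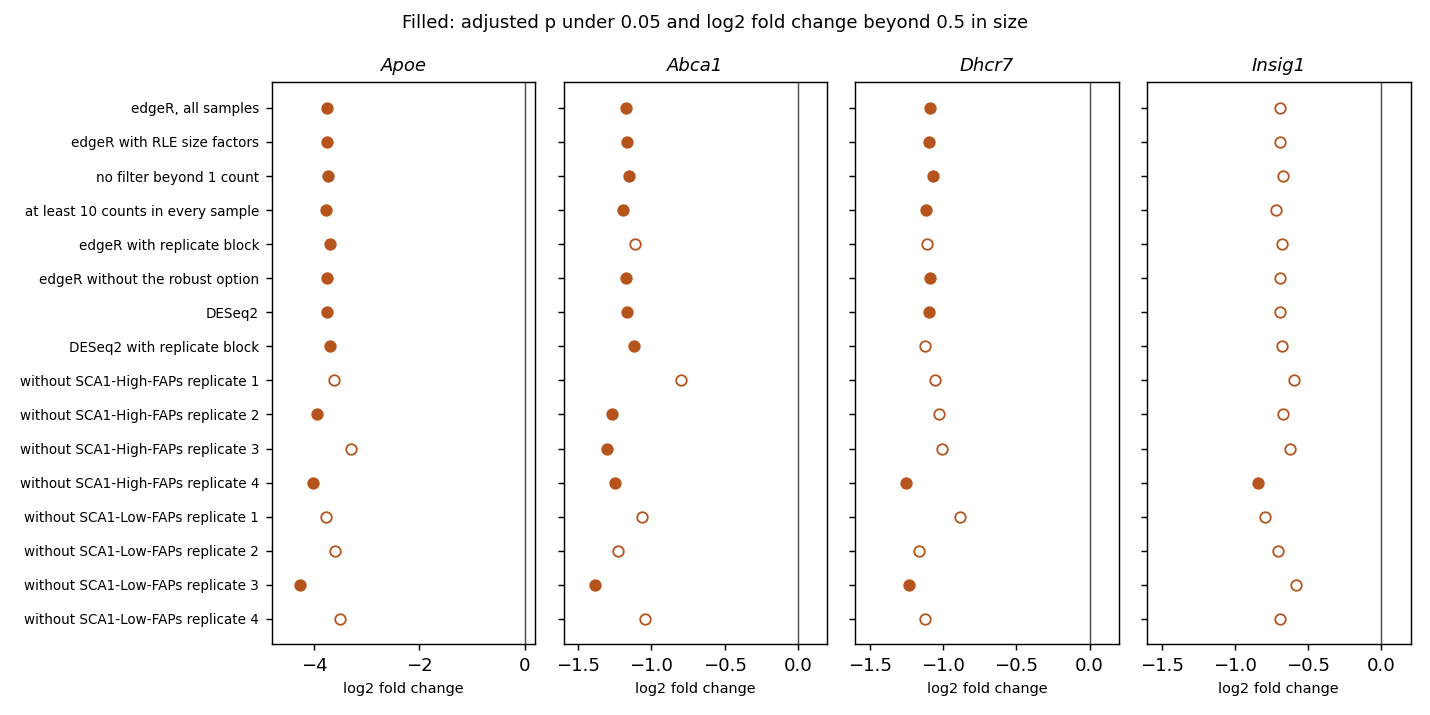
Log2 fold change of Apoe, Abca1, Dhcr7 and Insig1 under each alternative analysis and with each sample left out; a filled point passed both thresholds and an open point did not, and each panel has its own horizontal axis. All points lie left of 0, while the calls of Apoe, Abca1 and Dhcr7 change between filled and open with several left-out samples. In edgeR with the block, Abca1 and Dhcr7 are open and Apoe is filled. In DESeq2 with the block, Dhcr7 is open and Apoe and Abca1 are filled. Insig1 is filled only without replicate 4 of SCA1-High-FAPs.

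The 3′ ends of 8 members are near-identical to another annotated gene over 75 or more bases in at least 1 transcript. For *Dhcr7* this concerned 1 of 13 transcripts, for *Insig1* 1 of 2 and for *Fdps* 6 of 7. Reads of these genes may therefore be under-counted in both cell states. No such match was found for *Apoe* or *Abca1*. Reads aligned to more than 1 position were 37.5% to 39.7% of entries in SCA1-High-FAPs and 40.8% to 43.3% in SCA1-Low-FAPs. The loss of reads may differ between the states, and its part in these genes was not tested. A gene on the opposite strand overlaps the 3′ end of 5 members (*Mvd*, *Fdft1*, *Lss*, *Cyp51* and *Npc1*), and since the strand setting of the count is not stated, their reads cannot be told from those of the partner with certainty.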

How the data were processed

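RNA of 8 samples, with 4 biological replicates of each cell state, was made into QuantSeq 3′ mRNA libraries. The authors trimmed the reads, aligned them with STAR to mm10, counted them on Ensembl 93 genes with htseq-count and deposited the raw counts per gene, with no normalisation. Reads aligned to more than 1 position were given to no gene. They were 37.5% to 39.7% of entries in SCA1-High-FAPs and 40.8% to 43.3% in SCA1-Low-FAPs, without overlap. Entries on no feature were 9.35% to 10.2% in SCA1-High-FAPs and 7.87% to 8.83% in SCA1-Low-FAPs. These summary entries were left out. The strand setting is not stated, and molecular identifiers are not mentioned, so the detection limit of 3 counts covers counting error only. The 95% intervals come from the fit and include the spread between samples. Depth was 1880561 to 3985656 counts on genes per sample, which gives the precision of each value.

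Of 31053 genes, 31011 were matched to GENCODE M21 (GRCm38) for names and positions. Genes were kept by filterByExpr (10 counts in enough samples and 15 in total), scaled by TMM and compared between the cell states, as labelled, by edgeR 4.0.16 under R 4.3.3 (glmQLFit with the robust option, then glmQLFTest), with Benjamini-Hochberg adjustment over 10181 genes. Standard errors were derived from the F statistic as |log2 fold change|/√F. *Idi1*, which the filter dropped, was tested by an exact permutation test over 70 assignments of labels, on log2(CPM + 1). Alternatives were DESeq2 1.42.0, RLE scaling, other filters, the replicate number as a block, no robust option, other thresholds and each sample left out. On simulated data for this comparison (10181 genes), edgeR called 100 of 100 genes changed 4-fold and 54 of 100 changed 2-fold, with 10 false calls among 164. The simulation changed fewer genes than were called in the data, left genes of low count unchanged and held no shared animals. Its rates therefore need not hold for the members. The description of the series gives 4 mice for both cell states, so the states share animals, but which samples came from the same animal is not given, and the main fit took no pairing into account.

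The members and gene lists were chosen with earlier results of these data known, and no *p*-value was adjusted over a list alone. By rule, the text names all members, and of 41 further pathway genes those called with or without the block together with *Srebf1*, *Nr1h3* and *Abcg1*. Outside this rule it also names *Acaca*, *Nr1h2*, *Lpcat3*, *Ch25h* and *Cyp27a1*. Some genes of the pathway are not reported here. Marker lists (FAP, adipocyte, mitosis, leucocyte and macrophage, endothelial, myogenic, Schwann cell and pericyte) are given as sums and counts. Promoter windows are from RefSeq on GRCm38.p6, and near-identical 3′ ends (last 400 bases, at least 95% identity over 75 bases) were found with blastn 2.17.0. Tables and figures used Python 3.11.15, pandas 2.3.3 and matplotlib 3.10.9.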

Additional observations from a re-analysis of the deposited data

Results flagged for a closer look

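In 7 of the 71 groups of 4 samples examined, over the members and the further genes named by rule, 1 sample stood far from the other 3. Chance alone flags about 1 in 20 such groups. In SCA1-High-FAPs, *Abca1* was highest in replicate 1 at 97.0 CPM (the others 40.9 to 47.7), *Tm7sf2* was highest in replicate 1 at 11.8 CPM (6.33 to 6.97), and *Hmgcs1* was lowest in replicate 4 at 392 CPM (508 to 529). In SCA1-Low-FAPs, *Hmgcs1* was highest in replicate 2 at 431 CPM (395 to 400.2), *Mvk* was lowest in replicate 4 at 64.4 CPM (79.3 to 81.7), *Mvd* was lowest in replicate 2 at 32.7 CPM (52.7 to 56.5), and *Srebf2* was lowest in replicate 2 at 52.8 CPM (77.9 to 80.2). Of these genes *Abca1* was called in the comparison, and the call was lost without replicate 1 of SCA1-High-FAPs.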

How the results depend on the processing

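The 3 calls among the members (*Apoe*, *Abca1*, *Dhcr7*) were the same genes with RLE scaling, both other filters, no robust option, no limit on fold change and DESeq2. At an adjusted *p*-value of 0.01, edgeR called 307 of all genes (782 at 0.05), 0 members and 1 of the other pathway genes. DESeq2 called 3 members at 0.05. An unadjusted edgeR *p*-value under 0.05 was found for 8 of 27 members, against 21.3% of all tested genes. Leaving out each sample gave 410 to 1017 calls over all genes, 0 to 4 members and 2 to 7 other pathway genes. Members numbered 0 without replicate 1 of SCA1-High-FAPs and without replicates 1, 2 or 4 of SCA1-Low-FAPs, and 1 (*Abca1*) without replicate 3 of SCA1-High-FAPs. Calls over all genes were 417 and 410 without replicates 1 and 4 of SCA1-Low-FAPs, and other pathway calls 2 and 3. Without a filter, 8 other pathway genes were called in place of 5. The cause of these shifts was not tested.

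With the replicate number as a block, edgeR called 697 genes, 1 member (*Apoe*) and 5 other pathway genes, and DESeq2 838, 2 (*Apoe*, *Abca1*) and 6. The numbers were not taken as pairs, because deviations of same-numbered samples correlated by −0.05 to 0.01 across genes, against −0.29 to 0.26 between other numbers. This check concerns the numbering only, and which samples share a mouse is not given.

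Reversals of sign were limited to values near 0: *Nsdhl* (0.02) to −0.004 with at least 10 counts in every sample and over −0.13 to 0.13 with samples left out, *Hsd17b7* −0.12 to 0.13, *Srebf2* −0.19 to 0.0091 and *Scap* −0.20 to 0.0777. Over the genes named by rule, 480 values kept direction and call, 28 lost the call, 5 gained it and 9 changed sign. In the simulation, where the changed genes did not include those of low count, a 2-fold change was called for 54 of 100 genes.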
